A study of Mus musculus with 20 samples.

Results

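H3K14ac, the acetylated form of lysine 14 of histone H3, was mapped by ChIP-Seq in the livers of young and old mice, and the peaks described here are those that were listed in young liver alone at the start of a transcript. The livers came from wild type male C57BL/6 mice aged 3 months (young) or 21 months (old), were snap-frozen and received no treatment, so age is the labelled difference between the groups. Whether batch or depth also differed between ages is not given in the sources used here. Chromatin was also precipitated with antibodies to Setdb1 and Kap1 from livers of the same ages. The methods of the study give 3 livers per age for H3K14ac and Setdb1 and 2 for Kap1. The livers of an age were merged before peaks were called, so 1 list exists per age and mark, and no value for a separate liver, no spread and no test between ages can be given. The lists hold positions only, without heights, and the depth behind them is unknown.

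A member of the set was a young H3K14ac peak on chromosomes 1 to 19, 500 bp wide, that shared no base with any old H3K14ac peak and lay within 1 kb of a transcript start site of the GENCODE basic annotation of mm10. Of 19350 young peaks, 18885 lay on these chromosomes and 18424 of those were 500 bp wide. No shared base with an old peak was found for 14820 of them (80.4%), and 2717 of these lay within 1 kb of a start site. The set thus held 14.04% of all young peaks (95% Wilson interval 13.6 to 14.5%, which, like all intervals given here, covers counting error only). The members were chosen by a measured value, the absence of an old peak, so that absence and the distance to old peaks are descriptions and not findings. For comparison 3 other classes of 500 bp peaks were used. They were 2378 young peaks at start sites that shared at least 1 base with an old peak (kept peaks), 4814 old peaks at start sites with no young partner (old-only peaks) and 12103 young-only peaks further than 1 kb from any start site (distal young-only peaks). Young peaks at start sites were thus split into 53.3% without (52.0 to 54.7%) and 46.7% with an old partner, and of 7171 old peaks there 67.1% (66.0 to 68.2%) had no young partner.

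H3K14ac is placed by histone acetyltransferases such as Gcn5, PCAF and the Kat6 and Kat7 enzymes, is removed by histone deacetylases, and marks active promoters and enhancers. Promoters fall broadly into those inside CpG islands, typical of genes used by most cells, and those poor in CpG, typical of genes used in a few tissues such as the plasma protein and metabolic genes of hepatocytes. Setdb1 is a histone H3 lysine 9 methyltransferase whose tandem Tudor domain can bind H3 tails that carry acetylated lysine 14 beside methylated lysine 9. Kap1 (Trim28) is a corepressor that KRAB zinc finger proteins bring to DNA and that recruits Setdb1. In whole liver, fewer cells of a type and less of the mark per cell cannot be told apart.

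Members differed widely in the DNA under them, and the stretches that follow show low and high CpG content among genes of the metabolic and chromatin lists used below. Only the 59 peaks with at least 200 bases in a row outside exons could be shown, which leaves out peaks of higher ratio such as the one at Morc2a. They are RefSeq sequence of GRCm38.p6 (mm10), 240 bases long, written 5′ to 3′ on the strand of the gene, taken from the part of each peak that lies outside exons. Capitals mark CG dinucleotides. Of these 59, the 4 with the lowest observed to expected CpG ratio of the peak lay at Apoc2, the cofactor of lipoprotein lipase (chr7:19676481-19676720, minus strand), Rxra, the shared partner of many nuclear receptors (chr2:27711472-27711711, plus strand), Gpam, which starts glycerolipid synthesis (chr19:55127464-55127703, minus strand), and Gpt, alanine aminotransferase (chr15:76695392-76695631, plus strand). The 4 of the 59 with the highest ratio lay at Zfp57, a KRAB zinc finger protein that binds methylated imprinting control regions (chr17:37002778-37003017, plus strand), Gstz1, an enzyme of tyrosine breakdown (chr12:87147969-87148208, plus strand), Hdac2, a class I deacetylase (chr10:36974139-36974378, plus strand), and Ing1, a reader of methylated H3K4 in a deacetylase complex (chr8:11557088-11557327, plus strand).
Apoc2: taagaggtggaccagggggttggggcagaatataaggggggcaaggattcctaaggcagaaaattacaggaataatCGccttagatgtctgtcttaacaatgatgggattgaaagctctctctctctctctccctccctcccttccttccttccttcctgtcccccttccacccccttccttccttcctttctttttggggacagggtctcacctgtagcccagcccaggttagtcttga
Rxra: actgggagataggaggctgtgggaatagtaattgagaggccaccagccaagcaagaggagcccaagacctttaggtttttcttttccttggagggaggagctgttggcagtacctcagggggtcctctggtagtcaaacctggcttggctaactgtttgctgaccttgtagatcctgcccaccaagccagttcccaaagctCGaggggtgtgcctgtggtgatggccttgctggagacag
Gpam: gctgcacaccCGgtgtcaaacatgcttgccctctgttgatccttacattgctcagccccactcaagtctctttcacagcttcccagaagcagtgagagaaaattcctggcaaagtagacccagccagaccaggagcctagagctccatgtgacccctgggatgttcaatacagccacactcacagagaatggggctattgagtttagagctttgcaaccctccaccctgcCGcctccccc
Gpt: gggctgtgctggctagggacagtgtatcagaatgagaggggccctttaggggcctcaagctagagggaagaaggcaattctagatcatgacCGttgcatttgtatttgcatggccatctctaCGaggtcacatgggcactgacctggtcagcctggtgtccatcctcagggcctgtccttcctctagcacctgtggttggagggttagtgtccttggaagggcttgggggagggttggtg
Zfp57: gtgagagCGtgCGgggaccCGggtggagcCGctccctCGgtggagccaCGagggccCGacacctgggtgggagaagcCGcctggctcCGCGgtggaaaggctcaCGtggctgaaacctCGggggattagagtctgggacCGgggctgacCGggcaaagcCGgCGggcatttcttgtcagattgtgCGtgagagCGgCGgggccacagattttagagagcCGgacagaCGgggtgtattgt
Gstz1: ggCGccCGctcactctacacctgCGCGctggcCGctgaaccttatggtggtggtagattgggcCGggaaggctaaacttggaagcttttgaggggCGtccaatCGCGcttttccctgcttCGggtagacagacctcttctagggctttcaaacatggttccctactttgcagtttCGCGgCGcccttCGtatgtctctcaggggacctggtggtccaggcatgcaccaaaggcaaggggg
Hdac2: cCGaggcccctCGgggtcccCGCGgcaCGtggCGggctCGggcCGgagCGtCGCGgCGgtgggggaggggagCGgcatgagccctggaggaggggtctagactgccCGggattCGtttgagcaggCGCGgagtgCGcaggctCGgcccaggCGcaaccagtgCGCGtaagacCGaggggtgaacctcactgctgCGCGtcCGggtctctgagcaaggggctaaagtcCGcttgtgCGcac
Ing1: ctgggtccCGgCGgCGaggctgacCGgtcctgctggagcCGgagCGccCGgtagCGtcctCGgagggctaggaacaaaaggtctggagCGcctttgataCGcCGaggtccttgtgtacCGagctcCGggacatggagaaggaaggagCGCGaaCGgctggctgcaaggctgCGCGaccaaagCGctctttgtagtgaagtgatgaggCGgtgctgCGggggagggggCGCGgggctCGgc
The first 4 stretches held 1, 1, 2 and 2 CG dinucleotides and the other 4 held 21, 14, 28 and 25. Over the whole peak the observed to expected ratio was 0.0274 at Apoc2, 0.0534 at Rxra, 0.0943 at Gpam and 0.104 at Gpt. It was 0.796 at Zfp57, 0.827 at Gstz1, 0.932 at Hdac2 and 0.938 at Ing1. None of these 8 peaks met a Kap1 or Setdb1 peak of either age.

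The members lay around start sites in another way than kept or old-only peaks did, with fewer peaks on the start site itself and more upstream of it. The rule keeps members off the bases of old peaks, and the same overlap sorts kept and old-only peaks. The part of this choice in the differences was not tested, so they are a description and their intervals cover counting error only. A start site was covered by 988 members (36.4%, 34.6 to 38.2%), against 45.2% of kept peaks and 45.9% of old-only peaks. The difference was -8.80 percentage points from kept peaks (95% Newcombe interval -11.5 to -6.10) and -9.54 from old-only peaks (-11.8 to -7.24). Another 694 members (25.5%) lay upstream without covering a start site, compared with 11.4% of kept peaks (difference 14.1 points, 12.01 to 16.2) and 15.0% of old-only peaks (10.5 points, 8.63 to 12.5). The remaining 1035 members (38.1%) lay downstream, against 43.4% of kept and 39.1% of old-only peaks, and the interval of the latter difference included 0 (-1.001 points, -3.28 to 1.29). The midpoint of a member lay at a median of 154 bp downstream of the nearest start site, with quartiles at -264 and 418 bp. The median was 215 bp for kept and 179 bp for old-only peaks.

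Midpoints more than 500 bp upstream were found for 388 members (14.3%), 5.47% of kept peaks and 8.45% of old-only peaks. Nearer to the start site, the members' shares showed a shoulder in the 100 bp that begin 500 bp upstream. These 100 bp were picked after seeing the distribution, as the highest of the upstream bins, so their intervals are a description. Midpoints there were found for 140 members (5.15%, 4.38 to 6.05%), 44 kept peaks (1.85%) and 99 old-only peaks (2.06%). The difference was 3.30 points from kept peaks (2.31 to 4.31) and 3.10 points from old-only peaks (2.21 to 4.06). An old peak lay within 500 bp of 43 of the 140 (30.7%), and once all members with such a neighbour were set aside the shoulder still held 97 members (4.33%, 3.56 to 5.25%). Of the 140, 36 (25.7%) were CpG-rich as defined below. Start sites of both strands lay within 1 kb of 462 members (17%), 24.0% of kept peaks and 20.5% of old-only peaks.

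**Figure D1:**
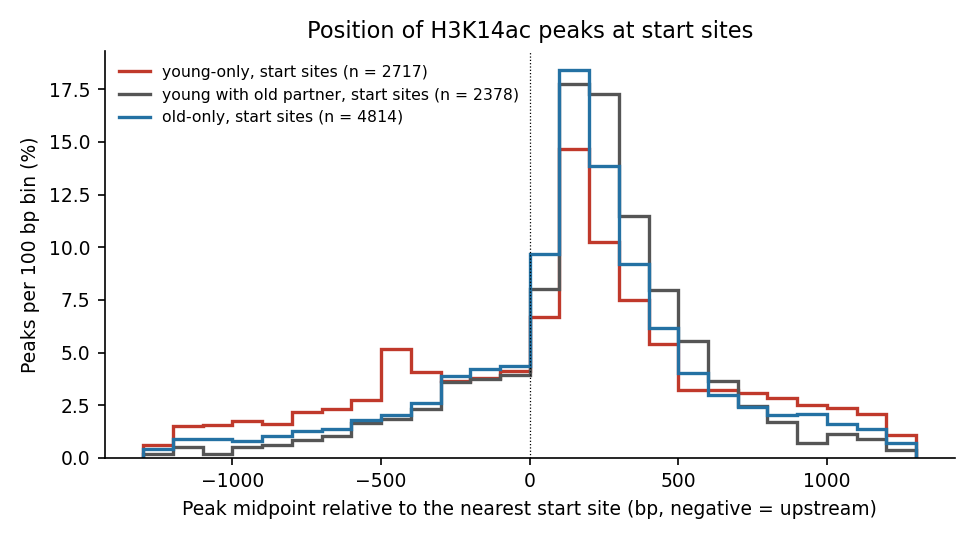
Share of peaks in each class (y axis, percent) by the distance of the peak midpoint from the nearest start site (x axis, bp, negative values upstream on the strand of the gene, 100 bp bins), 1 line per class. The members have a lower maximum just downstream of the start site than kept and old-only peaks and a higher share upstream, with 5.15% in the bin that begins 500 bp upstream against 1.85% and 2.06%.

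A peak was called CpG-rich when its GC content was at least 50% and its observed to expected CpG ratio at least 0.6. Members were poorer in CpG than the other peaks at start sites. By this rule 1044 members (38.4%, 36.6 to 40.3%) were CpG-rich, against 76.4% of kept peaks (74.7 to 78.1%), 66.1% of old-only peaks and 0.570% of distal young-only peaks. Over all young 500 bp peaks the share was 16.3%. The difference was -38.0 points from kept peaks (-40.4 to -35.4) and -27.7 points from old-only peaks (-29.9 to -25.4). The median GC content was 54.8% in members, 65.2% in kept peaks, 64.6% in old-only peaks and 44.6% in distal young-only peaks, and the median CpG ratio was 0.493, 0.775, 0.747 and 0.137 in the same order. Members were therefore between the other start-site classes and distal peaks in base composition. Among peaks whose nearest start site belonged to a protein-coding gene the order was the same, with 48.6% of members, 78.6% of kept and 72.7% of old-only peaks CpG-rich.

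The position of members was related to their CpG content. Of CpG-rich members 55.3% covered a start site, compared with 51.1% of CpG-rich kept peaks (difference 4.20 points, 0.395 to 7.97) and 56.8% of CpG-rich old-only peaks. Of CpG-poor members 24.6% did, compared with 26.03% of kept (-1.46 points, -5.74 to 2.60) and 24.7% of old-only peaks. Within neither kind, then, did members cover a start site less often than kept peaks beyond counting error. The excess upstream was present in both kinds, with 13.03% of CpG-rich members against 7.71% of kept (5.32 points, 3.004 to 7.78) and 7.45% of old-only peaks (5.58 points, 3.44 to 7.92). It was 33.4% of CpG-poor members against 23.5% of kept (9.82 points, 5.52 to 13.9) and 29.7% of old-only peaks (3.62 points, 0.447 to 6.77).

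The place of a peak in the deposited young list moved with these values. What the order of the list stands for is not given in the sources used here. When the young list was cut into 10 slices of equal size, 64.9% of all young peaks of the first slice had an old partner and 9.56% of all those of the last. The CpG-rich share of members went from 65.2% in the first slice to 11.9% in the last, and that of kept peaks from 81.5% to 50.8%. In the first 50% of the list 48.5% of members (46.03 to 50.98%) and 80.6% of kept peaks were CpG-rich, and in the second 24.7% (22.3 to 27.3%) and 62.4%. The difference between members and kept peaks was thus present in both parts of the list. The part of list order in it was not tested further.

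**Figure D2:**
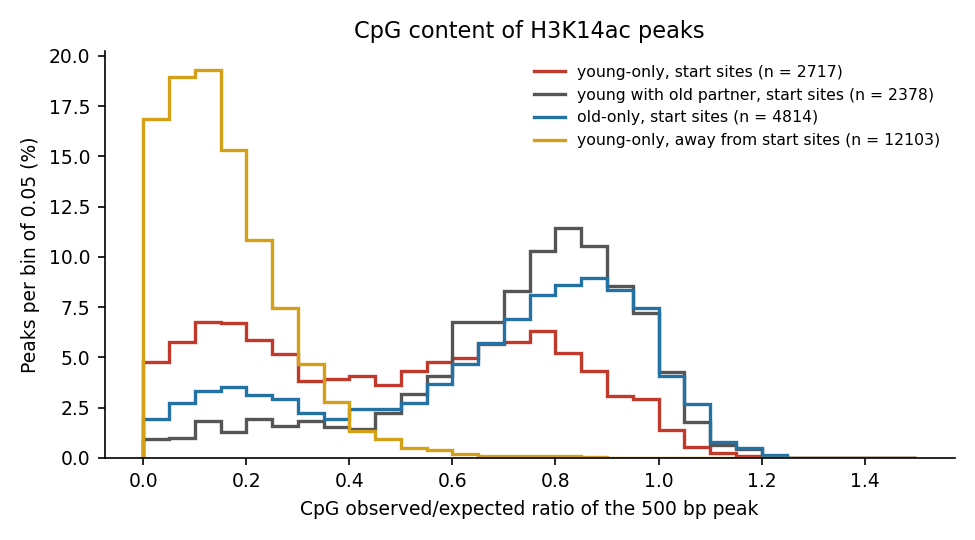
Share of peaks (y axis, percent) by observed to expected CpG ratio (x axis, bins of 0.05) for members, kept, old-only and distal young-only peaks. Members spread over low and high ratios around a median of 0.493, kept and old-only peaks gather at high ratios (medians 0.775 and 0.747) and distal peaks at low ones (median 0.137).

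The start sites nearest to members belonged to protein-coding genes for 1969 members (72.5%), to pseudogenes for 293 (10.8%) and to genes of other types for 455. Protein-coding genes made up 88.2% for kept and 83.3% for old-only peaks, and pseudogenes 2.23% and 3.95%. Among the latter 2 kinds were 177 processed pseudogenes, 125 lincRNAs, 98 antisense RNAs, 81 unprocessed pseudogenes, 57 gene models of the class TEC, 39 miRNAs, 30 snoRNAs and 25 snRNAs. A near-identical copy elsewhere in the genome was found for 38 members (1.40%), 0.799% of kept and 0.374% of old-only peaks, and reads from such copies cannot be placed with certainty. By chromosome, members were densest on chromosome 8 (180 members, 52.5 per 1000 start sites) and chromosome 19 (50.3 per 1000) and sparsest on chromosome 2 (27.1 per 1000), while chromosome 7 held the most (280).

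An old H3K14ac peak was close to some members and far from most. The gap to the nearest old peak had a median of 15989 bp, with quartiles at 1290 and 61036 bp. It was at most 500 bp for 477 members (17.6%), at most 1000 bp for 629 (23.2%) and over 100 kb for 451 (16.6%). Members thus included both peaks beside an old one and peaks at start sites with no old peak in the neighbourhood. At the edge of the rule, the members at Ptdss1, Fbxo33 and Scamp1 touched an old peak without sharing a base, and the peaks at Tysnd1, Plekhn1 and Prrg4 were left out because they shared 1 base. Kept peaks shared a median of 403.5 bases with old peaks, and 78 of them shared under 50. At the other edge, members at Olfr838-ps1, Onecut2 and Gm37148 lay 999, 1000 and 1000 bases from a start site, while peaks at Zfand1 and Gm11338 (1005 bases) and Gm49078 (1006 bases) fell outside.

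The 723 members (26.6%, 24.98 to 28.3%) with an old peak at a start site of the same gene had a median gap of 324 bp, and 588 of them (81.3%) lay within 1 kb of an old peak. The other 1994 members (73.4%) had a median gap of 32938 bp. Of the former 25.7% and of the latter 40.2% covered a start site, which is a description only, since the rule keeps a member off the bases of an old peak. CpG-rich members made up 32.6% (29.3 to 36.1%) and 40.5% (38.4 to 42.7%).

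**Figure D3:**
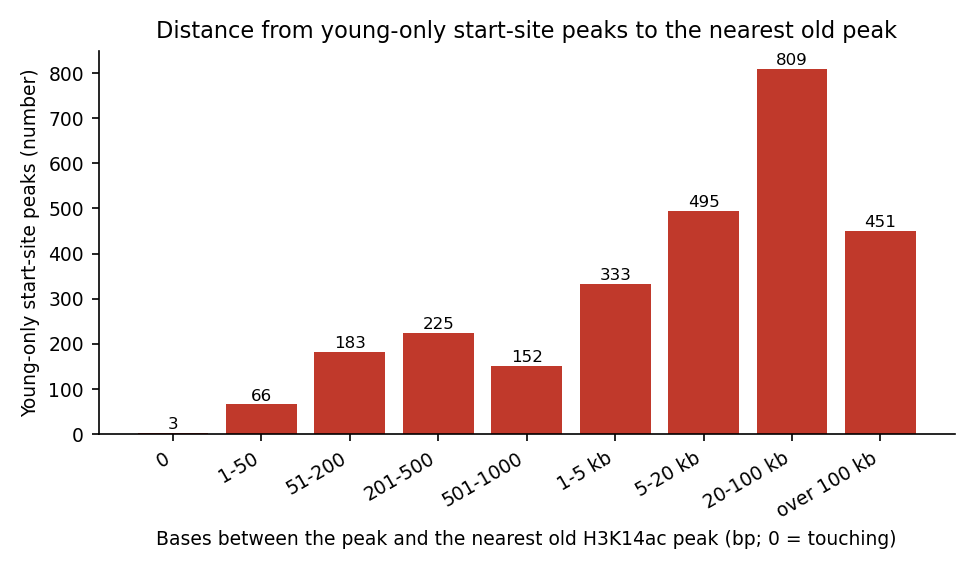
Number of members (y axis) by the gap to the nearest old H3K14ac peak (x axis, classes of bp or kb). The bars stand for the members with a gap in that class, from 3 that touch an old peak to 451 at over 100 kb, and the class of 20 to 100 kb is the tallest with 809.

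Members lay at start sites of 3009 genes, of which 807 (26.8%, 25.3 to 28.4%) also had an old peak at a start site and 2202 had none. Among 20807 protein-coding genes of chromosomes 1 to 19, 2104 (10.1%) had a member, 5752 (27.6%) had an old peak at a start site and 3981 (19.1%) had an old-only peak. Of the 2104, 1460 had no old peak at any start site and 644 (30.6%, 28.7 to 32.6%) had one, among them 301 with a kept peak and 380 with an old-only peak, and some had both. Of the 20807 genes 3963 had any young peak at a start site, the 2104 among them. In the lists, any young peak was found at 21 urea cycle and amino acid genes (12 with a member) and 20 fatty acid genes (10). It was found at 15 bile acid and cholesterol genes (10 with a member), 19 nuclear receptors (11), 10 apolipoproteins (4) and 43 respiratory chain genes (27). Whether a list had more members than its young peaks would give was not tested. Gene lists are described below by counts beside these shares, without a test of the list. Genes with an old peak at a start site numbered 18 of 37 in the bile acid and cholesterol list, 23 of 47 in the fatty acid list, 17 of 34 in the glucose list, 22 of 46 among nuclear receptors and 45 of 103 for the respiratory chain, so old peaks were frequent in these lists as well. A gap to an old peak is printed for each named gene as a description of the rule.

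Apolipoproteins, the protein parts of plasma lipoproteins, had a member at 4 of 14 genes (28.6%), and 8 of the 14 had an old peak. The 4 genes lie side by side on chromosome 7. Apoc2 had 1 member over its start site (chr7:19676481-19676980) and its nearest old peak was 19615 bp away. Apoc4 had 2 members with midpoints 286 and 928 bp downstream (chr7:19680943-19681442 and chr7:19680301-19680800), and Apoc1 had 1 with its midpoint 556 bp downstream and 4298 bp from an old peak. The member at Apoe, the ligand by which remnant lipoproteins are taken up, covered the start site (chr7:19698025-19698524) with its midpoint 8 bp upstream. Unlike the other 3 genes, Apoe also had an old peak at a start site, 816 bp from the member. In the stretch from Apoe to Apoc2 the young list held 5 peaks, all members, and the old list held 2 other peaks at chr7:19696596-19697095 and chr7:19699341-19699840, both near Apoe. Of 14 genomic windows with published coordinates that were looked up, only the one around Apoc1 had a member.

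Bile acid and cholesterol genes had a member at 10 of 37 (27.0%), and 6 of the 10 had no old peak at a start site. Fdps and Idi1, which make and use isoprenoid units, and Dhcr7 and Sc5d, late enzymes of cholesterol synthesis, were in this group. The gap to an old peak was 10162 bp at Fdps, 44048 bp at Idi1, 155848 bp at Dhcr7 and 177492 bp at Sc5d. Nr0b2 (SHP), the nuclear receptor that represses bile acid synthesis, had a member centred 619 bp downstream and 20473 bp from an old peak. Slc27a5, which activates bile acids for conjugation, had a member 555 bp from an old peak that itself lay beyond 1 kb of the start site. Cyp7b1, of the alternative bile acid pathway, Hmgcs1, Insig2 and Srebf2, which make or sense sterols, had a member beside an old peak, with gaps of 31, 447, 202 and 692 bp.

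Fatty acid and triglyceride genes had a member at 10 of 47 (21.3%). Dgat2, the last step of triglyceride synthesis, had 2 members, 1 CpG-rich peak over the start site (chr7:99182249-99182748) and 1 CpG-poor peak centred 874 bp downstream (chr7:99181595-99182094), both over 40 kb from an old peak. Fabp1, the fatty acid binding protein of hepatocytes, had a CpG-poor member centred 290 bp downstream and 23168 bp from an old peak. Elovl2, which elongates polyunsaturated fatty acids, had a CpG-rich member over its start site, 4311 bp from an old peak, and Pnpla2, the triglyceride lipase, had one 5914 bp from an old peak. At Elovl6 the gap was 55 bp, to an old peak beyond 1 kb of a start site. At genes of fatty acid synthesis that had an old peak too, the gaps were 571 bp at Fasn, 161 and 262 bp at the 2 members of Acly and 122 and 539 bp at the 2 of Fads1. Angptl4, an inhibitor of lipoprotein lipase, had a gap of 792 bp. At Gpam, which also had an old peak at a start site, the gap was 27733 bp.

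Genes of the urea cycle and of amino acid breakdown had a member at 12 of 37 (32.4%), and 7 of the 12 had no old peak at a start site. Old peaks were frequent in the list too, at 24 of the 37 genes (64.9%), with an old-only peak at 35.1%, against 27.6% and 19.1% of all protein-coding genes. Of the 12 members, 1 was CpG-rich (8.33%). Ass1, which joins citrulline and aspartate, had one centred 630 bp downstream (chr2:31470587-31471086), 610 bp from an old peak beyond 1 kb of the start site. Asl, the next enzyme, had a member over a start site with an old peak at another place, 2214 bp away. Tat, which starts tyrosine breakdown, had a member centred 910 bp downstream and 203829 bp from an old peak, and Hpd, the next step, one centred 260 bp downstream with a gap of 671 bp. Hal, which starts histidine breakdown, and the aminotransferases Got1 and Got2 had gaps of 45823, 3684 and 80131 bp. Of all members of this list, the one at Asl alone covered a start site. The members at Bhmt, Cbs and Gpt were 79, 175 and 747 bp from an old peak.

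Glucose genes had a member at 8 of 34 (23.5%). Pdk4, a kinase that shuts off pyruvate dehydrogenase in fasting, had a CpG-rich member over its start site (chr6:5495866-5496365), 517843 bp from any old peak, and Pdk2, of the same family, had one 38261 bp away. Tpi1, of glycolysis, had a gap of 5186 bp and Pgm1 one of 658 bp. Pck1, Fbp1 and Slc37a4, which carry out gluconeogenesis and glucose 6-phosphate transport, and Irs2, of insulin signalling, had an old peak too, with gaps of 1485, 886, 784 and 370 bp. Of these 4 genes, 3 also had a kept peak at a start site and 0 had an old-only peak.

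Nuclear receptors had a member at 11 of 46 (23.9%). Nr1i3 (CAR), the receptor that answers to xenobiotics, had 3 members in a row (chr1:171213930-171215215), 1 over its start site and 2 downstream, all CpG-poor, at gaps of 8698, 8218 and 7912 bp from an old peak. Nr5a2 (LRH-1), an activator of bile acid synthesis, had a CpG-rich member centred 788 bp downstream, 9540 bp from an old peak. Thra and Rarb, receptors of thyroid hormone and retinoic acid, had gaps to an old peak of 31939 bp for Thra and 132188 and 133133 bp for the 2 members of Rarb. Esrra and Esrrb, orphan receptors related to the oestrogen receptors, had gaps of 20573 and 256680 bp. Ppara, which drives fatty acid oxidation in fasting, had a member over its start site 708 bp from an old peak, and Rara and Nr3c2 had gaps of 855 and 1075 bp. Transcription factors of hepatocytes had a member at 7 of 28 (25%), and 21 of the 28 (75%) had an old peak. Only Gata4 (113724 bp) and Nr5a2 among the 7 had none, and at Foxo1, Klf10, Klf15, Onecut2 and Prox1 the gaps ranged from 146 bp at Klf10 to 1324 bp at a member of Klf15.

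Complement and coagulation genes had a member at 8 of 44 (18.2%), while 17 of the 44 (38.6%) had an old peak and 12 (27.3%) an old-only peak. F2, prothrombin, Masp2, a protease of the lectin pathway, and C8g, a chain of complement component C8, had no old peak at a start site, with gaps of 108511, 22875 and 20257 bp. C2, Cfb, F10, Proc and Vtn had one. Oxidative stress genes had a member at 8 of 44 (18.2%), while 18 of the 44 (40.9%) had an old peak and 9 (20.5%) an old-only peak. Cat, which breaks down hydrogen peroxide, had a CpG-rich member over its start site (chr2:103484631-103485130), 311082 bp from an old peak. Hmox1, haem oxygenase, had 2 members, 14694 and 15242 bp away, Mgst1 1 member 406738 bp away and Txn1, thioredoxin, 1 member 77170 bp away. These 4 genes had no old peak at a start site, while Gstm1, Keap1, Sod2 and Txnrd1 had one. Cytochrome P450 genes had a member at 12 of 94 (12.8%), 9 of them without an old peak. Cyp3a11, a main drug oxidising enzyme of mouse liver, had one over its start site (chr5:145879525-145880024), 23834 bp from an old peak, and 2 of 13 members of this family were CpG-rich. Near-identical P450 copies could share reads, but 0 of these members had a second copy as defined in the methods.

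Genes that most cells use also had members, and there the peaks were mostly CpG-rich. Subunits and assembly factors of the respiratory chain and ATP synthase had a member at 27 of 103 genes (26.2%), and 20 of the 27 had no old peak at a start site. Cox7c, of complex IV, had one over its start site 546549 bp from an old peak, and Uqcrfs1, the Rieske protein of complex III, one at 207992 bp. Of 27 members 16 were CpG-rich. Mitochondrial ribosomal proteins had a member at 17 of 78 (21.8%), 13 of them without an old peak, and 15 of 21 members were CpG-rich. In that list 27 of the 78 genes (34.6%) had an old peak. Mrps2, of the small subunit, had a member 606731 bp from an old peak. The member at chr13:73328063-73328562 covered the start sites of the divergent genes Ndufs6 and Mrpl36 and counted for both, at 47419 bp from an old peak. Cytosolic ribosomal proteins had a member at 14 of 78 (17.9%), and 46 of the 78 had an old peak. Rps12 (292247 bp), Rps24 (165217 bp) and Rpl3 (49646 bp) were among the 11 of these 14 without an old peak, and 12 of 16 members were CpG-rich. Proteasome subunits had a member at 6 of 39 (15.4%), none with an old peak at a start site, and 6 of 7 members were CpG-rich. Old peaks were frequent in this list, at 22 of the 39 genes (56.4%), with an old-only peak at 15 (38.5%). The start site region shared by Psma2 and Mrpl32 held 2 members.

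Among genes of H3K14 acetylation, 5 of 29 (17.2%) had a member and 22 of 29 had an old peak. Of the 5 genes with a member, Hdac3, the deacetylase of the NCoR and SMRT complexes, was the one without an old peak at a start site. Its member covered the start site at 19113 bp from the nearest old peak. Hdac2 had a CpG-rich member over its start site (chr10:36974139-36974638), 32 bp from an old peak. Ing1, Ing3 and Baz2a had gaps of 654, 179 and 328 bp. Among genes of H3K9 methylation and the Kap1 complex, 5 of 30 (16.7%) had a member and 18 of 30 had an old peak. Cbx5, which encodes HP1 alpha, Morc2a, which compacts chromatin with the HUSH complex, and Zfp57 had no old peak at a start site (gaps 3764, 196708 and 12658 bp), while Cbx3 (HP1 gamma, 638 bp) and Fam208a (the HUSH subunit TASOR, 93 bp) did. Lists with shares below the 10.1% of all protein-coding genes included the circadian clock (2 of 22, 9.09%) and interferon and inflammation genes (4 of 50, 8%). Cell cycle and senescence genes (3 of 36, 8.33%) and olfactory receptors (43 of 1127, 3.82%) were below it too. All but the olfactory receptors are small lists with counts near that share. Histones (4 of 79, 5.06%), serpins (6 of 60, 10%) and UDP-glucuronosyl, glutathione S- and sulfotransferases (6 of 65, 9.23%) also lay below it. Ubiquitin E2 and E3 genes (25 of 234, 10.7%), solute carriers (43 of 358) and RNA binding and splicing genes (16 of 121, 13.2%) lay above it. Old peaks were at 68.2% of the clock genes, 42% of the interferon genes and 44.4% of the cell cycle genes. The clock genes with a member, Csnk1d and Tef, both had one. Zinc finger genes named Zfp, many of which encode KRAB proteins, had a member at 75 of 385 (19.5%), 55 of them without an old peak. An old peak was at 141 of the 385 (36.6%) and an old-only peak at 95 (24.7%), against 27.6% and 19.1% of all protein-coding genes.

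**Figure D4:**
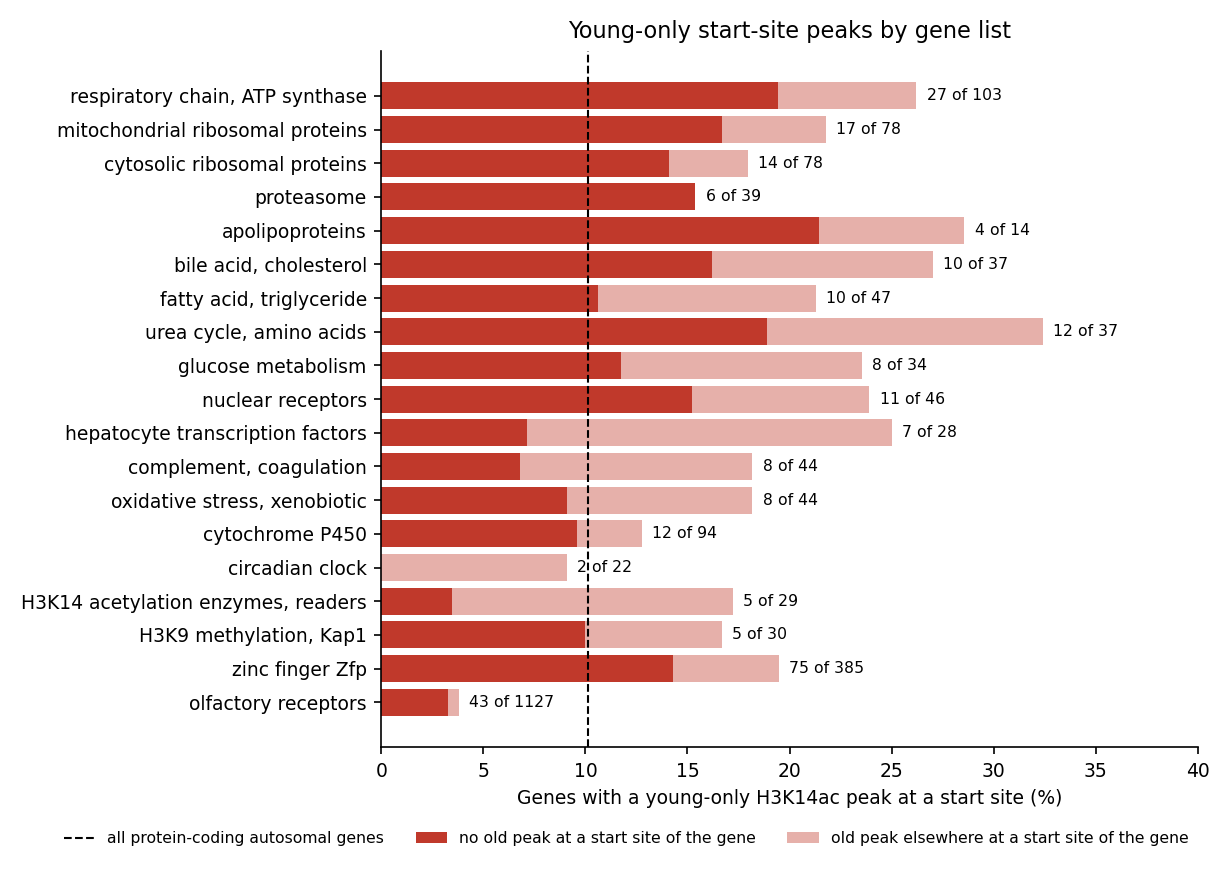
Share of the genes of selected lists with a member at a start site (x axis, percent), with the number of genes beside each bar. Bars are split by whether the gene also had an old peak at a start site. Lists not drawn include interferon and inflammation, cell cycle, histones, serpins, transferases, ubiquitin, solute carriers and RNA binding. Their shares ranged from 5.06 to 13.2%. The dashed line is the 10.1% of all protein-coding genes, and the urea cycle and amino acid list has the longest bar at 32.4%.

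Marker genes of liver cell types were used to check the labelled tissue. Of 26 hepatocyte markers 11 had a young peak at a start site, 8 had an old peak and 7 had a member (Cyp3a11, Serpina1b, Serpina3k, Tat, Trf, Hpx and Rbp4), and 0 of 8 members at these genes were CpG-rich. Markers of endothelial cells (10 genes), macrophages (11), T and NK cells (11), B cells (8) and cholangiocytes (8) had no member. Reln, of 10 stellate cell markers, had 1, and so did Syt1, of 12 neuronal, and Myh7, of 12 muscle genes, cell types that are not expected in quantity in liver. Of all 20807 protein-coding genes 10.1% had a member, 27.6% an old peak and 3963 any young peak at a start site. The lists other than that of hepatocytes hold 8 to 12 genes each, so a count of 0 or 1 member is near the 10.1%. A peak list without heights shows only where the mark passed the caller.

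Kap1 met few members. A young Kap1 peak shared at least 1 base with 142 members (5.23%, 4.45 to 6.13%), against 10.6% of all young 500 bp peaks. The share was 4.25% in kept peaks (difference 0.979 points, -0.199 to 2.15), 2.45% in old-only peaks (2.78 points, 1.87 to 3.76) and 10.1% in distal young-only peaks (-4.84 points, -5.79 to -3.79). An old Kap1 peak met 78 members (2.87%), against 7.00% of all young peaks. Members thus met young Kap1 less often than distal peaks of the same list, more often than old-only peaks, while the interval of the difference from kept peaks included 0. That last call depended on the setting, since the difference was above 0 with start sites within 500 bp (1.38 points, 0.181 to 2.59), with distance from the midpoint (1.32 points, 0.140 to 2.50) and without second copies (1.17 points, 0.0589 to 2.28).

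Most of this overlap was outside CpG-rich DNA and outside protein-coding genes. Among CpG-rich members 10 of 1044 (0.958%) met a young Kap1 peak, against 0.550% of CpG-rich kept peaks (0.407 points, -0.227 to 1.24), and among CpG-poor members 132 of 1673 (7.89%, 6.69 to 9.28%). CpG-poor kept peaks met it in 16.2% (13.4 to 19.5%), a difference of -8.33 points (-11.8 to -5.19), and CpG-poor old-only peaks in 5.89% (2.004 points, 0.274 to 3.74). Among CpG-poor peaks, members thus met Kap1 less often than kept peaks and more often than old-only peaks. At pseudogenes 65 of 293 members (22.2%, 17.8 to 27.3%) met young Kap1. There 35 of 53 kept peaks (66.0%, 52.6 to 77.3%) and 15.3% of old-only peaks (10.8 to 21.1%) did. At protein-coding genes 46 of 1969 members (2.34%) did, against 2.24% of kept peaks (0.0949 points, -0.835 to 1.04) and 1.42% of old-only peaks (0.915 points, 0.202 to 1.75). An old Kap1 peak as well was found at 41 of the 142 members (28.9%, 22.1 to 36.8%), at 69 of 101 kept peaks with young Kap1 (68.3%, 58.7 to 76.6%) at 395 of 1218 distal young-only peaks (32.4%) and at 839 of all 1944 young 500 bp peaks with young Kap1 (43.2%). These counts ask whether the H3K14ac peak met Kap1 peaks of both ages, not whether those Kap1 peaks overlapped each other. A near-identical second copy was found for 14 of the 142.

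Some Kap1 members lay close together, and whether more did so than other peaks was not tested. When such members at most 100 kb from the next were joined, 4 stretches of 4 or more members held 20 of the 142. The longest spanned chr4:156050350-156228031 with 6 Kap1 members of 8 members, at Ttll10, Gm13648, Rnf223, Agrn and Plekhn1, and 1 of the 6 also met old Kap1. A stretch at chr8:20888303-20943910, near AY761185 and the gene models Gm20796, Gm15056 and Gm6040, had 5 of 5 members with young Kap1 and all 5 with old Kap1. At chr7:59264314-59350428, 5 of 6 members met young Kap1 and 0 met old Kap1. At chr13:12863494-12919258, 4 of 4 members met young Kap1, and 3 of them met old Kap1 as well. The old list held 41 H3K14ac peaks in the stretch on chromosome 4, 19 on chromosome 8, 1 on chromosome 7 and 25 on chromosome 13. No member at the genes of the metabolic lists met a young Kap1 peak, and 3 of 80 members at Zfp genes and 6 of 49 at olfactory receptor genes did. Over all members at protein-coding genes 46 of 1969 did (2.34%). The metabolic lists were small, with 13 members at fatty acid and triglyceride genes, so a count of 0 there is near that share.

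A young Setdb1 peak met 27 members (0.994%, 0.684 to 1.44%), against 2.52% of all young 500 bp peaks, 0.757% of kept peaks, 0.686% of old-only peaks and 2.78% of distal young-only peaks. Of the last 3 classes, distal peaks alone differed from members beyond counting error (-1.78 points, -2.22 to -1.25). Among peaks of protein-coding genes, 12 of 1969 members and 4 of 2097 kept peaks met young Setdb1 (0.609% against 0.191%, 0.419 points, 0.0224 to 0.886). Against old-only peaks of such genes the interval included 0 (0.186 points, -0.178 to 0.666). Against kept peaks it also included 0 among CpG-poor (-1.12 points, -2.83 to 0.0911) and CpG-rich peaks (0.163 points, -0.254 to 0.776). An old Setdb1 peak met 8 members (0.294%), against 0.939% of all young peaks. Both young factors met 0.792% of all young 500 bp peaks, 0.562% of distal young-only peaks and 0.145% of old-only peaks. They met 4 members (0.147%), against 12 kept peaks (0.505%, difference -0.357 points, -0.743 to -0.0415). The 4 members lay at Gm37151 (chr1:32972075-32972574), Gm13034 (chr4:146066841-146067340), Agrn (chr4:156185163-156185662) and Gm20399 (chr7:5904725-5905224). Agrn, which encodes agrin, was the protein-coding gene among them, and its member met a Kap1 peak of 1694 bp and a Setdb1 peak of 1212 bp. The member at Gm13034 has a second copy in the genome.

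**Figure D5:**
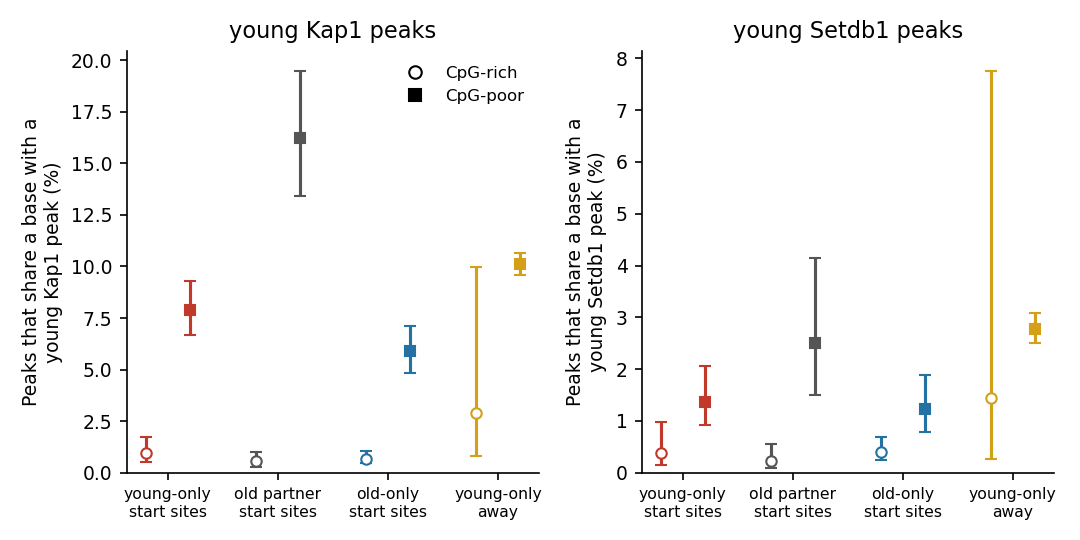
Share of peaks (y axis, percent, with 95% Wilson intervals that cover counting error only) that met a young Kap1 peak (left) or a young Setdb1 peak (right), for members, kept, old-only and distal young-only peaks, with CpG-rich peaks as open circles and CpG-poor peaks as filled squares. For Kap1, CpG-poor members stand at 7.89%, between old-only peaks (5.89%) and kept peaks (16.2%), while CpG-rich members stand at 0.958%.

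Short sequences that transcription factors are known to bind were counted on both strands of each peak, and their shares moved with base composition. The 15 sequences were GGGCGG of Sp and KLF factors, CCAAT of NF-Y, TATAAA of the TATA box, the ETS sequence CCGGAAG, GCATGCGC of NRF1, the E-box CACGTG, TGACGTCA of CREB, AAGATGG of YY1, GTTAAT of HNF1, CAAAGTCC of HNF4, ATCAAT of Onecut factors, TTGCNNAA of C/EBP, TGTTTAC of FOXA, ACANNNTGT of the glucocorticoid receptor and CCACNAG of CTCF. None of them contains another. The GC box core GGGCGG was found in 40.4% of members, 67.5% of kept, 63.7% of old-only and 5.46% of distal peaks, and in 36.2% of 72109 windows of 500 bp at all start sites. The TATA box TATAAA was found in 14.7%, 5.97%, 8.97% and 30.7% of the same classes and in 20.9% of the windows, and CCAAT in 44.3%, 29.1%, 33.7% and 56.0% and in 49.4%. Among CpG-poor peaks alone, 7 of 15 sequences were more frequent in members than in kept peaks beyond counting error and 1 less frequent. The median GC content of these peaks also differed, at 49.2% in CpG-poor members, 54.6% in kept and 51% in old-only peaks, and its part in the shares was not tested. TATAAA was in 20.4% of CpG-poor members and 12.3% of CpG-poor kept peaks (8.08 points, 4.57 to 11.3), CCAAT in 49.7% and 41.9% (7.78 points, 3.01 to 12.5) and ACANNNTGT in 14.5% and 9.27% (5.26 points, 2.13 to 8.03). TGTTTAC differed by 2.36 points (0.0353 to 4.29), and for CAAAGTCC of HNF4 the interval included 0 (0.430 points, -1.21 to 1.64). The C/EBP sequence TTGCNNAA was in 20.2% of CpG-poor members and 12.1% of CpG-poor kept peaks (8.08 points, 4.59 to 11.2), and the Onecut sequence ATCAAT in 14.05% and 9.09% (4.96 points, 1.86 to 7.69). GTTAAT, part of the HNF1 site, was in 12.9% and 8.91% (3.998 points, 0.946 to 6.68). In CpG-poor distal young-only peaks TTGCNNAA was in 20.8%, ATCAAT in 20.9% and GTTAAT in 16.3%. These shares were no lower than in CpG-poor members, and the median GC content of those distal peaks was 44.6%. Against CpG-poor old-only peaks 1 sequence was more frequent in members, TTGCNNAA (17.2% in old-only peaks, 3.04 points, 0.376 to 5.69), and GGGCGG was less frequent (-5.90 points, -8.75 to -3.05). Among CpG-rich peaks members differed as well. There 7 of the 15 sequences were more frequent in members than in kept peaks and 1 less frequent, and 8 were more frequent than in old-only peaks and 1 less frequent. CCAAT was in 35.6% of CpG-rich members, 25.1% of kept (10.5 points, 7.03 to 14.1) and 26.2% of old-only peaks (9.46 points, 6.22 to 12.8), TTGCNNAA exceeded kept peaks by 3.28 points (1.02 to 5.68), and GGGCGG was again less frequent (-5.26 points from kept peaks, -8.56 to -2.04). The median GC content was 63.2% in CpG-rich members, 67.4% in kept and 68.4% in old-only peaks. Over all start-site windows TTGCNNAA was in 16.5%, ATCAAT in 13.996% and GTTAAT in 11.5%. These are matches of letters, which do not show binding, and neighbouring matches can share bases.

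Members came in groups at some genes. Another peak of the same list, member or not, lay within 1 kb of 25.8% of members, 38.1% of kept and 32.6% of old-only peaks. The difference was -12.2 points from kept peaks (-14.8 to -9.66) and -6.76 points from old-only peaks (-8.85 to -4.63). Such a neighbour was found for 19.7% of all young 500 bp peaks and 11.9% of distal young-only peaks. Of 2507 groups made by joining members at most 1 kb apart, 194 held 2 or more, 14 held 3 and 1 held 4. The group of 4 spanned chr19:8928655-8931097 at Eml3 and Rom1, with 0 old peaks within 1 kb. Klf13, a Sp/KLF factor, had 5 members, 3 of them at chr7:63924101-63926232, none CpG-rich. Other groups of 3 without an old peak within 1 kb lay at Lgals9, which encodes galectin-9 (chr11:78983385-78984891), Rrm2, a subunit of ribonucleotide reductase (chr12:24707342-24709101), Sco2, a copper chaperone of complex IV (chr15:89373095-89374647), and Use1, a SNARE of transport to the endoplasmic reticulum (chr8:71366680-71368067). These places were picked for having no old peak within 1 kb, so that absence describes the choice. Groups of 3 at Gm20402, Mir683-2 and Naca had 2, 1 and 1 old peaks within 1 kb.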

How the data were processed

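The authors aligned ChIP-Seq reads of H3K14ac, Setdb1 and Kap1 to mm10 using BWA. Peaks came from PeakSeq, which had an input control, the reads of an age as 1 pool and another q-value limit for each mark. Neither duplicates found by Picard nor reads without a unique position entered the pools. The 6 deposited lists hold positions only (3 columns, 175329 peaks in all), with no read count, height or score, so the depth per sample and the spread between livers are unknown. A figure legend of the study speaks of fewer merged H3K14ac replicates than its methods, and the methods were followed here. The members and gene lists were chosen with earlier results of these data known. Overlap (at least 1 shared base), gaps, position relative to 77198 start sites of GENCODE vM21 basic, GC and CpG content, motif matches and second copies (minimap2 2.31, at least 90% of the peak at 95% identity) were computed in Python 3.11.15 (scipy 1.17.1, numpy 2.4.6), and plots were drawn with matplotlib 3.10.9. Overlap code was tested on simulated data and differed from bedtools 2.31.1 in 0 of 20 counts. Shares carry 95% Wilson intervals and their differences Newcombe intervals, without a hypothesis test, since each age has 1 pooled list. Genes named are those of the fixed lists with a member, those with the most members, members that meet both young factors, members at the limits of the rule and the windows of the study. Alternatives were another start-site window, the peak midpoint, coding start sites, a 500 bp gap, stricter CpG and overlap limits, no second copies, merged neighbours, all widths and chromosomes and both parts of the deposited order. H3K9me3, sequential ChIP and Hdac3 data were not analysed here.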

Additional observations from a re-analysis of the deposited data

How the results depend on the processing

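Of 68 values recomputed under another choice, 41 were called the same and 27 moved. A share was called the same when it stayed inside the counting interval of the main setting. Counts of members and of genes have no such interval and were called the same within a fixed factor of the main value. With start sites within 500 bp, genes that also had an old peak were 19.9% in place of 26.8%, CpG-rich members 46.0% in place of 38.4% and members covering a start site 45.6% in place of 36.4%. With distance taken from the midpoint these were 24.2%, 41.8% and 40.02%. With start sites of coding transcripts only, 30.7% of genes had an old peak, 48.5% of members were CpG-rich, 2.45% met young Kap1 (in place of 5.23%) and 0.624% met young Setdb1 (in place of 0.994%). Without members that had an old peak within 500 bp, 10.8% of genes had an old peak and 38.5% of members covered a start site. Stricter CpG limits gave 31.6% CpG-rich members. With at least 50% of the factor peak inside the member, Kap1 met 3.86% and Setdb1 0.662%, and when a factor peak at most 500 bp away also counted, 8.32% and 2.28%. The split by deposited order was chosen after seeing the data. The first 50% of the list held 1565 members and 1840 genes, with 48.5% CpG-rich, 40.6% covering a start site and 3.45% with Kap1, and the second 50% held 1152 members and 1292 genes, with 24.7%, 30.6% and 7.64%. The causes were not tested. Over 8 settings the difference from kept peaks ranged from -38.2 to -30.5 points for CpG-rich peaks and from -11.1 to -3.47 for covering a start site, with intervals below 0 in all 8, while for young Kap1 it ranged from -0.110 to 1.38 points, with the interval above 0 in 3. Leaving out a liver could not be run because the lists are pooled. No paired analysis was possible because the livers of an age were merged into 1 list.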
